A study of Mus musculus with 23 samples.

Results

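The interferon-gamma inducible GTPases described here are 10 mouse genes, namely Gm4841, Gm4951, Iigp1, Igtp, Irgm1, Irgm2, Tgtp1, Tgtp2, Gbp2 and Gbp7, out of 17194 genes measured in quadriceps or epididymal fat of mice with pancreatic tumors. The genes were taken by symbol from the deposited count tables. The list was chosen by values of these same data: Gm4841 had the largest fall in KPC against KPC IL6KO quadriceps, and which values put the other 9 on the list is not recorded. The 2 quadriceps comparisons that involve KPC are therefore given for these genes as values without p values. Counts of genes past the thresholds there are descriptions. KPC IL6KO against no tumor in quadriceps and the 3 comparisons in fat were tested. The former shares its KPC IL6KO libraries with the choice of Gm4841. All 10 genes were in the fat table of 16962 genes. The quadriceps table of 12831 genes held 9 of them and no row for Gm4951, and every row of both tables passed the low count filter.

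RNA was sequenced in 23 libraries, and the paper describes separate library preparation for muscle and fat. The sample titles number the libraries of the tissues differently, and they were treated as separate mice with 1 library each. All hosts were male C57BL/6J mice, 8 weeks old at surgery, that kept their own Il6 gene. The no tumor mice (n = 3 in quadriceps, n = 4 in fat) had sham surgery. The KPC mice (n = 4 in each tissue) carried orthotopic pancreatic tumors grown from a cell line of a KPC mouse tumor, a model of pancreatic cancer in which Pdx1-Cre acts in the pancreas. The KPC line was 1 clone that had received CRISPR/Cas9 with a null guide. The KPC IL6KO mice (n = 4 in each tissue) carried tumors of the same line after editing of Il6, again from 1 clone, so that the edit and the clone cannot be told apart. Mice of all groups were euthanized together when the KPC group reached its endpoint. The comparison asks how the genes differ between hosts of tumor cells with and without an intact Il6 gene, while host cells could make IL-6 in all groups.

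Interferon-gamma is a cytokine made mainly by T cells and natural killer cells. It binds the receptor of Ifngr1 and Ifngr2, and signaling through the kinases Jak1 and Jak2 then acts on the GAS element of its target promoters. A second element, ISRE, is bound by a complex that holds Irf9 and by interferon regulatory factors such as Irf1. The immunity-related GTPases and the guanylate-binding proteins are among the most strongly induced targets in mouse cells and are known for attacking the membrane of vacuoles that hold intracellular parasites. Iigp1, Tgtp1 and Tgtp2 are effectors that load on to such vacuoles. Irgm1, Irgm2 and Igtp sit on host membranes and hold the effectors inactive there. Gbp2 and Gbp7 belong to the guanylate-binding proteins, and Gm4841 and Gm4951 are family members annotated beside Iigp1.

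Promoters of 7 of the 10 genes were taken from RefSeq (GRCm38.p6, the build of the authors' mm10 alignment). Gm4841, Gm4951 and Iigp1 were left out of the search, so nothing is said here of their promoters. All of the 7 that were searched held a match to ISRE within 250 bases before the start. The search used TTCNNNGAA for GAS, a palindrome, and GAAANNGAAA for ISRE, on both strands. Of 32851 promoters, 2.98% held ISRE, 7.02% held GAS and 0.332% held both. GAS was found in 5 of the 7 genes, always together with ISRE. In Igtp, Irgm2, Tgtp1 and Tgtp2 the ISRE match followed the GAS match after 2 bases. This joined arrangement, TTCNNNGAANNGAAANNGAAA, occurred in 5 of the 32851 promoters (0.0152%). The fifth was that of Gm12185, another gene of the family on chromosome 11. The joined pattern carries the spacing of these same genes, so its share of all promoters is a description. Igtp and Irgm2 share long stretches around their matches, and so do Tgtp1 and Tgtp2, so these are not independent cases. Promoter matches are not known to have entered the choice of genes. The list is one of genes induced by interferon-gamma, so its share of matches is a description too. They are matches of letters and not measured binding. The 110 bases before each RefSeq start are shown because they hold every match, with matches in capitals.
Igtp (chr11:58199446-58199555, forward strand): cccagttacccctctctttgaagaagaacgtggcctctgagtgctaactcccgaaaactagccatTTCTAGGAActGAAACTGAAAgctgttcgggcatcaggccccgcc
Irgm2 (chr11:58214867-58214976, forward strand): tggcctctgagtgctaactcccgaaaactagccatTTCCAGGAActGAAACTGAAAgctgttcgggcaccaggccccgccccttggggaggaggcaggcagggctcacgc
Tgtp1 (chr11:48992247-48992356, reverse strand): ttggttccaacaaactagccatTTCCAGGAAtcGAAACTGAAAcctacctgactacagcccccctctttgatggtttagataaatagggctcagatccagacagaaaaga
Tgtp2 (chr11:49064213-49064322, reverse strand): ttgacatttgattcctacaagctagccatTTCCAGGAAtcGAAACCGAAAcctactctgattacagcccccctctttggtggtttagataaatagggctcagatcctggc
Irgm1 (chr11:48871421-48871530, reverse strand): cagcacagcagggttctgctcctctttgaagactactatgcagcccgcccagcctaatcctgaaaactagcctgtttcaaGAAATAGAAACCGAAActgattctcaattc
Gbp2 (chr3:142620553-142620662, forward strand): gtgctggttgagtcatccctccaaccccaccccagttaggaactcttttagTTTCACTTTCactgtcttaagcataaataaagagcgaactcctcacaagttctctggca
Gbp7 (chr3:142530226-142530335, forward strand): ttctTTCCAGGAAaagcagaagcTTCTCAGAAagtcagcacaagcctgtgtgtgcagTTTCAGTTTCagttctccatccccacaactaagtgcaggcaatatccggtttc

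The motif maps differed between the 7 genes. Irgm1 held 2 overlapping ISRE matches, from 30 to 21 and from 24 to 15 bases before its start, and no GAS. Gbp2 held 1 ISRE on the reverse strand and no GAS. Gbp7 held 2 GAS matches that ended 44 and 25 bases before an ISRE on the reverse strand. Among promoters of the other lists, ISRE was found in 6 of 11 other GTPase genes, 9 of 22 targets of type I interferon, 1 of 14 other targets of interferon-gamma, 2 of 9 genes of interferon-gamma signaling and 0 of 7 vacuole targeting partners.

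**Figure D1:**
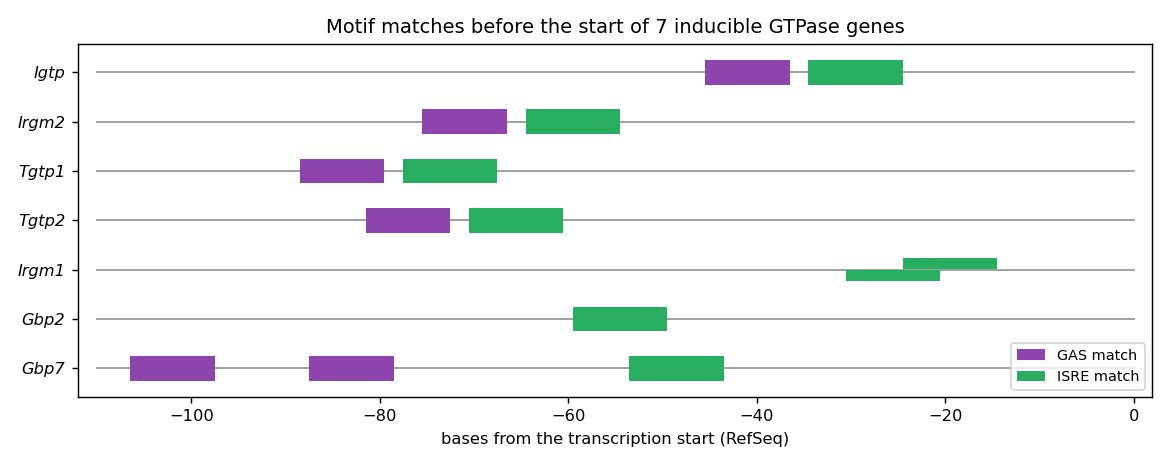
Positions of GAS and ISRE matches, in bases from the RefSeq transcription start (x axis), in the promoters of 7 inducible GTPase genes (y axis). GAS and ISRE stand 2 bases apart in Igtp, Irgm2, Tgtp1 and Tgtp2, and Irgm1 and Gbp2 have ISRE alone.

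The genes lie on 3 chromosomes of the GRCm38 genome (mm10). Positions given here are from GENCODE M21, and their starts differ from the RefSeq starts used for the promoters. Gm4841, Gm4951 and Iigp1 are on chromosome 18. Gbp7 (chr3:142530342-142550149) and Gbp2 (chr3:142620602-142638008) are on the forward strand, with Gbp3 and Gbp2b between them. Irgm1 (chr11:48861968-48871683), Tgtp1 (chr11:48985327-48994172) and Tgtp2 (chr11:49057194-49064206) are on the reverse strand. Igtp (chr11:58199556-58207591) and Irgm2 (chr11:58199618-58222782) overlap on the forward strand and share 162 exon bases of 2022 and 3690. The RefSeq start of Irgm2 used above lies past base 58214976, beyond the end of Igtp, so this overlap depends on the annotation. Whether reads in the shared bases were lost from the authors' counts was not established. The longest coding transcripts of Tgtp1 and Tgtp2 were 99.3% identical, and since only uniquely mapped reads were counted, the split of counts between this pair is uncertain.

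Library totals ranged from 19259763 to 74907810 counts in quadriceps, where no tumor 3 was the shallowest, and from 26306377 to 56308545 in fat. Levels are in CPM, the number of counts of a gene per 1000000 counts of the library after TMM scaling. A level of 3 counts was taken as the floor and equaled 0.0462 to 0.154 CPM in quadriceps and 0.0474 to 0.123 CPM in fat. Markers of muscle fibers summed to 119982 to 186167 CPM in quadriceps. In fat pads, adipocyte markers summed to 1544 to 25511 CPM, and markers of the epididymis, the adjoining organ, to 740 to 90376 CPM, so that fat libraries differed in tissue makeup. The 3 libraries with the most epididymis RNA were no tumor 5, no tumor 7 and KPC IL6KO 6 (71552 to 90376 CPM). The common coefficient of variation between replicates was 22.7% in quadriceps and 63.5% in fat. Bulk RNA cannot tell fewer cells of a type from less RNA per cell.

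In quadriceps, Gm4841 was nearly silent in KPC mice and the effector genes were low, whereas all were present in no tumor and KPC IL6KO mice. Gm4841 had 1.97, 3.04 and 4.61 CPM in no tumor, 0.0462, 0.0514, 0 and 0.0565 in KPC and 8.31, 3.54, 3.43 and 6.45 in KPC IL6KO. No KPC library held more than 3 counts of it, against 90 to 155 counts in no tumor and 202 to 422 in KPC IL6KO. With the KPC group set at 3 counts per library, the level was at least 63.2-fold lower than that of no tumor, and for KPC IL6KO the bound was 107-fold.

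Iigp1, which coats vacuoles early, had 11.1, 7.39 and 4.25 CPM in no tumor, 1.34, 3.29, 1.24 and 1.02 in KPC and 9.36, 5.38, 5.43 and 27.5 in KPC IL6KO. All KPC values lay below all others, and KPC IL6KO 4 stood far above the rest. The log2 FC was -2.15 ± 0.61 (SE) against no tumor and -2.79 ± 0.59 against KPC IL6KO.

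The near-identical effector pair Tgtp1 and Tgtp2 showed the same order of groups. Tgtp1 had 3.27, 1.76 and 0.871 CPM in no tumor, 0.139, 0.445, 0.196 and 0.263 in KPC and 1.61, 0.859, 1.15 and 9.90 in KPC IL6KO. Tgtp2 had 4.69, 2.43 and 1.38 CPM in no tumor, 0.169, 0.479, 0.196 and 0.151 in KPC and 1.81, 1.17, 1.32 and 9.76 in KPC IL6KO. No KPC library reached the lowest library of the other groups for either gene. The log2 FC against no tumor was -2.95 ± 0.86 for Tgtp1 and -3.53 ± 0.81 for Tgtp2. Against KPC IL6KO it was -3.69 ± 0.83 and -3.81 ± 0.78. The last pair of values leaned on KPC IL6KO 4, and without that mouse they were -2.21 and -2.52. Without no tumor 1 the difference from no tumor was -2.35 for Tgtp1, which then missed the threshold used for all genes, and -2.93 for Tgtp2.

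Among the regulators on host membranes, Igtp and Irgm2 were well below the other groups in KPC and Irgm1 was close to them. Igtp had 15.7, 16.8 and 10.7 CPM in no tumor, 2.59, 5.29, 2.44 and 2.09 in KPC and 17.3, 13, 9.52 and 27.4 in KPC IL6KO. Irgm2 had 24.2, 20.8 and 17.9 CPM in no tumor, 6.16, 10.4, 5.83 and 6.06 in KPC and 29.5, 19.1, 15.4 and 32.7 in KPC IL6KO. Both were lower in every KPC library than in any other, with log2 FC against no tumor of -2.22 ± 0.38 for Igtp and -1.56 ± 0.28 for Irgm2. Irgm1 had 16.6, 16.1 and 14.4 CPM in no tumor, 11.0, 12, 14.4 and 8.94 in KPC and 16.3, 15.2, 16.0 and 24.7 in KPC IL6KO. Its highest KPC library lay just under the lowest no tumor library. The log2 FC of Irgm1 was -0.44 ± 0.19 against no tumor, a mean 1.35-fold lower, and -0.64 ± 0.18 against KPC IL6KO.

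Both guanylate-binding proteins were lower in KPC. Gbp2 had 10.7, 10.9 and 5.43 CPM in no tumor, 1.36, 3.29, 1.90 and 0.790 in KPC and 7.98, 6.63, 6.36 and 27.1 in KPC IL6KO. Gbp7 had 21.7, 15.8 and 14.3 CPM in no tumor, 1.22, 3.47, 1.31 and 1.69 in KPC and 22.7, 17.1, 12.7 and 28.8 in KPC IL6KO. No KPC library reached the others, and for Gbp7 the gap ran from 3.47 to 12.7 CPM. The log2 FC against no tumor was -2.31 ± 0.57 for Gbp2 and -3.17 ± 0.38 for Gbp7. Without KPC IL6KO 4 the log2 FC of KPC against KPC IL6KO changed from -2.71 to -1.93 for Gbp2 and from -2.79 to -1.96 for Iigp1.

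**Figure D2:**
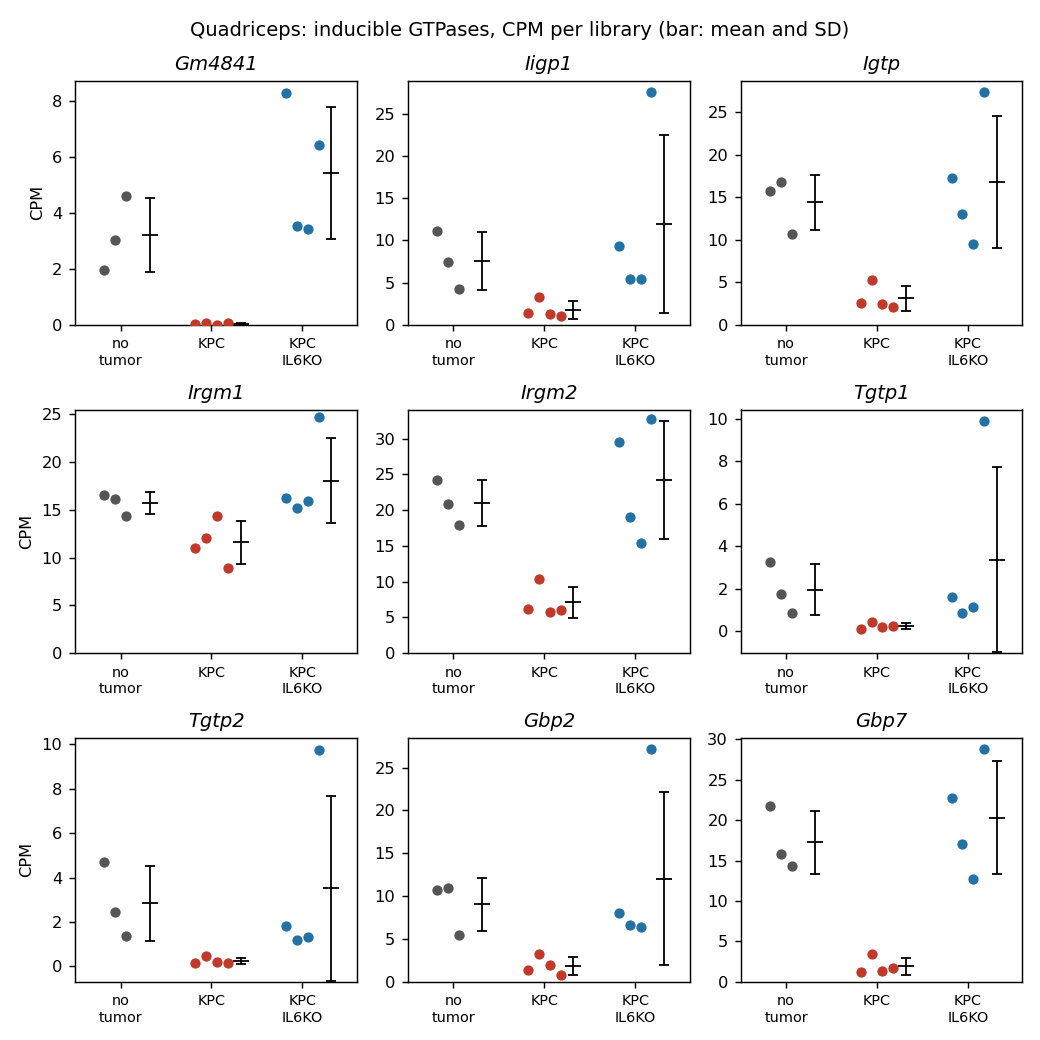
CPM (y axis, from 0 or below where an SD bar reaches there) of 9 inducible GTPases in each quadriceps library, by group (x axis), where points are mice and bars give the mean and SD. Every KPC point lies below every other point in each panel, narrowly so for Irgm1 (14.4 CPM in the nearest library of each group), and KPC IL6KO 4 is the highest KPC IL6KO point in all panels but that of Gm4841.

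As a group, 8 of the 9 genes were called lower in KPC than in no tumor past both thresholds (FDR 0.05, FC 1.5), the exception being Irgm1. By the same rule 29% of all quadriceps genes were called lower and 26.7% higher. The median log2 FC was -2.31 over the 9 genes, also with Gm4841 set at its bound, and -0.03 over all genes. Groups did not overlap in 9 of 9 genes, with KPC lower, and in 33% of all genes. Against KPC IL6KO, 9 of 9 were called lower, with 27.3% of all genes called lower and 26.4% higher. There the median was -2.79 (-0.01 over all genes), and 9 of 9 did not overlap, with 30.8% of all genes lower in this way. Both comparisons share the KPC libraries, and since values of these data chose the list, these counts are a description. Without KPC 4 or without KPC IL6KO 4, the call of Irgm1 against KPC IL6KO was lost (log2 FC of -0.53 and -0.45).

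KPC IL6KO and no tumor quadriceps, a comparison that the choice of genes is not known to have used, were not told apart by any of the 9 genes. The quasi-likelihood test called none of them, and 0% of all genes in either direction. FDR values ran from 0.808 for Gm4841 to 1.00. None of the 9 had an unadjusted p under 0.05 (887 of all genes did), and none was called by the likelihood ratio test or by DESeq2. Over all genes these tests called 70 and 63 genes lower and 25 and 30 higher. The log2 FC was positive in 9 of 9 genes, from 0.20 ± 0.28 for Irgm2 to 0.78 ± 0.41 for Gm4841, with a median of 0.28. The KPC IL6KO libraries also entered the fall that chose Gm4841, which favors a positive value for it. These signs are therefore a description. Without KPC IL6KO 4 the log2 FC turned negative for Iigp1, Igtp, Tgtp1, Tgtp2 and Gbp2. The standard errors leave room for differences of well over 1.5-fold in Gm4841, Iigp1, Tgtp1, Tgtp2 and Gbp2. Those of Igtp, Irgm2 and Gbp7 also leave room for over 1.5-fold.

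**Figure D3:**
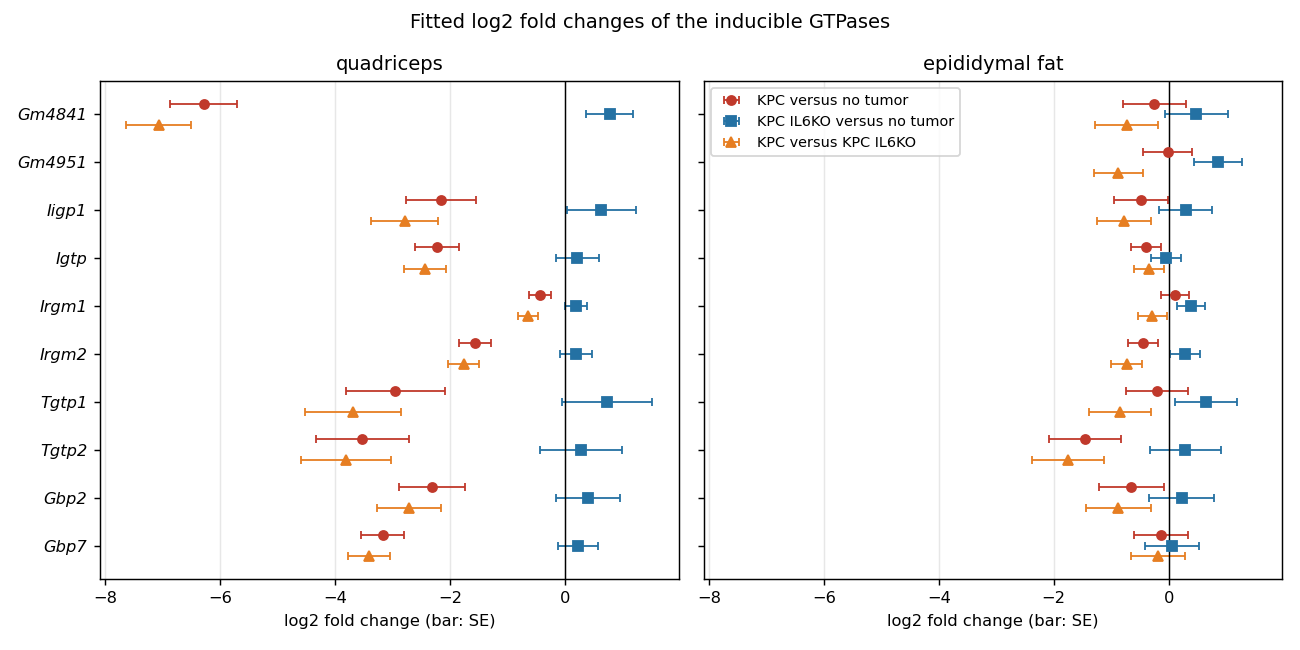
Fitted log2 FC (x axis, bars are SE) of each gene (y axis) in 3 comparisons in quadriceps (left) and epididymal fat (right). In quadriceps the KPC comparisons lie to the left of 0, furthest for Gm4841 (a fit that is no bound, since its KPC libraries held at most 3 counts) and nearest for Irgm1, and in fat all values lie between -1.75 and 0.86.

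Scaled to exon length, CPM per kb gives an approximate order of the genes. Lengths join all exons of a gene in GENCODE M21, which may differ from the authors' annotation. Only uniquely mapped reads were counted, which bears on Tgtp1 and Tgtp2. In no tumor quadriceps the order ran from Igtp (7.12 ± 1.61, SD, n = 3) and Irgm2 (5.69 ± 0.86) through Gbp2 (3.59 ± 1.24), Gbp7 (3.08 ± 0.69) and Irgm1 (2.70 ± 0.20) to Iigp1 (1.30 ± 0.59), Gm4841 (1.13 ± 0.47), Tgtp2 (0.97 ± 0.58) and Tgtp1 (0.61 ± 0.38). Neighbors in that order overlapped in their libraries, except Irgm2 with Gbp2 and, after Irgm1, the step to Iigp1. The same order held for the means in KPC IL6KO. In KPC quadriceps Irgm1 stood first (2.00 ± 0.39 CPM per kb, n = 4), not separated from Irgm2 (1.93 ± 0.60) and Igtp (1.53 ± 0.73), while Gm4841 stood last at 0.01 ± 0.01. The ratio of Gbp7 to Irgm1, in CPM, was 0.983 to 1.31 in no tumor, 0.0911 to 0.289 in KPC and 0.795 to 1.40 in KPC IL6KO, and the KPC libraries did not overlap the others. That pair was picked after its values were seen.

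Other genes of interferon-inducible GTPase families were present in the quadriceps table for 14 of 26 genes listed. In KPC against no tumor 8 fell and 1 rose, with a median log2 FC of -1.70. Gm12185, which overlaps Tgtp1 and whose joined match may be that of Tgtp1, had the largest fitted fall (edgeR quasi-likelihood FDR 7.92e-06). It had 1.02 to 2.04 CPM in no tumor and 0, 0.0685, 0 and 0.0188 CPM in KPC, at most 4 counts in a library. With KPC libraries under 3 counts set at 3, its mean was at least 28.4-fold lower, so that its rank is uncertain. F830016B08Rik, named after its values were seen, fell from 28.3 ± 7.60 to 0.673 ± 0.383 CPM, a ratio of means of 42.0 (log2 FC -5.38 ± 0.43, edgeR FDR 2.28e-06). The gene that rose was Irgq, an atypical member not known to be induced by interferon, from 37.4 ± 1.86 to 56.8 ± 19.9 CPM (log2 FC 0.60 ± 0.23, edgeR FDR 0.0330), and its groups overlapped. That call was lost with a replicate block, with the compared groups fitted alone and without any 1 of no tumor 1, 2 or 3, KPC 1 or KPC 4 (log2 FC of 0.43 to 0.65). Against KPC IL6KO 10 of the 14 fell and Irgq rose (log2 FC 0.71 ± 0.21, edgeR FDR 0.0095), a call that was lost without KPC 4 (0.54). None of the 14 was called in KPC IL6KO against no tumor by the quasi-likelihood test, the likelihood ratio test or DESeq2, and none had an unadjusted p under 0.05.

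Ifng itself is in neither table. Of 10 genes of interferon-gamma signaling in quadriceps, 4 fell and 3 rose in KPC against no tumor, where 29% of all genes fell and 26.7% rose. Ifngr2, a receptor chain, fell from 74.5 ± 7.00 to 26.3 ± 4.10 CPM (log2 FC -1.50 ± 0.12, edgeR FDR 2.62e-06, named after its values were seen), and Jak2 and Irf1 were among the others that fell. Ptpn2, a phosphatase that acts on Jak kinases, rose from 11.3 ± 0.456 to 32.1 ± 9.04 CPM (log2 FC 1.51 ± 0.18, edgeR FDR 2.63e-05). Jak1, the most abundant of them, rose from 157 ± 15.3 to 241 ± 62.3 CPM (log2 FC 0.62 ± 0.18, edgeR FDR 0.00789), and Irf2 rose. The call of Jak1 was lost without no tumor 2, KPC 1 or KPC 4 (0.55, 0.55 and 0.49). Ifngr1 and Irf8 were not called, with log2 FC of 0.23 ± 0.17 and 0.07 ± 0.20, and neither was Socs1 by the quasi-likelihood test (-2.03 ± 0.92, edgeR FDR 0.0681), which the likelihood ratio test called lower (edgeR FDR 0.0244). Against KPC IL6KO 5 fell and 2 rose, with the largest fall in Socs1, an inhibitor of Jak kinases (from 1.71 ± 2.34 to 0.153 ± 0.0527 CPM, log2 FC -3.45 ± 0.85, edgeR FDR 0.00351). That fall rested in large part on KPC IL6KO 1, which had 5.22 CPM of Socs1 against 0.393 to 0.617 in the other 3, and without it the log2 FC was -1.79 (edgeR FDR 0.00377). DESeq2 gave no adjusted p for Socs1 and called 4 of the list lower. In KPC IL6KO against no tumor none of the 10 was called, nor by the likelihood ratio test or DESeq2, and none had an unadjusted p under 0.05.

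Other targets of interferon-gamma mostly fell with the GTPases. Of 18 measured, 12 fell and 3 rose in KPC against no tumor, with a median log2 FC of -1.50. Cxcl9, a chemokine for T cells, fell most (from 2.41 ± 1.13 to 0.316 ± 0.281 CPM, log2 FC -2.94 ± 0.56, edgeR FDR 0.000667). Against KPC IL6KO 12 fell and 1 rose, and the largest fall was that of Ciita, the activator of MHC class II genes (from 1.48 ± 0.191 to 0.223 ± 0.114 CPM, log2 FC -2.71 ± 0.31, edgeR FDR 1.65e-05). Ifi30, a lysosomal thiol reductase, rose from 6.65 ± 0.412 to 82.5 ± 61.2 CPM (log2 FC 3.64 ± 0.55, edgeR FDR 0.000137). Lap3, an aminopeptidase and the most abundant on the list, rose from 51.6 ± 0.665 to 78.4 ± 7.70 CPM (log2 FC 0.60 ± 0.10, edgeR FDR 0.000253), but without KPC 1 or KPC 3 it missed the FC threshold (0.58 and 0.55).

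Most targets of type I interferon fell as well. Of 27 measured, 24 fell and 0 rose in KPC against no tumor by edgeR's quasi-likelihood test (2 had a positive log2 FC, and the likelihood ratio test called 25 lower and 0 higher), with a median log2 FC of -1.45. Cmpk2, a mitochondrial nucleotide kinase, fell most (from 2.49 ± 0.384 to 0.443 ± 0.460 CPM, log2 FC -2.49 ± 0.55, edgeR FDR 0.00168), and Ifi27, the most abundant, fell from 47.4 ± 23.4 to 17.2 ± 6.13 CPM (log2 FC -1.47 ± 0.30, edgeR FDR 0.00115). Against KPC IL6KO 24 of the 27 fell, led by Ifi44 (from 0.882 ± 0.420 to 0.117 ± 0.0644 CPM, log2 FC -2.91 ± 0.49, edgeR FDR 0.000266). In KPC IL6KO against no tumor none of either list was called, by this test, the likelihood ratio test or DESeq2, and 0 of 18 and 1 of 27 had an unadjusted p under 0.05.

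RNA of the ATG8 conjugation system, whose proteins IRG proteins and GBPs need to reach vacuoles and which also serves autophagy, went the other way. Of 10 such genes, 7 rose and 0 fell in KPC against no tumor by edgeR's quasi-likelihood test (1 had a negative log2 FC, and the likelihood ratio test also called 7 and 0). By the quasi-likelihood test 26.7% of all genes rose. Gabarapl1, an ATG8 family member, rose most (from 46.5 ± 2.29 to 369 ± 49.7 CPM, log2 FC 2.99 ± 0.15, edgeR FDR 3e-07), and Map1lc3b, the most abundant, rose from 177 ± 7.92 to 813 ± 232 CPM (log2 FC 2.20 ± 0.20, edgeR FDR 4.3e-06). Against KPC IL6KO 6 rose. None was called in KPC IL6KO against no tumor, by this test, the likelihood ratio test or DESeq2, and none had an unadjusted p under 0.05.

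**Figure D4:**
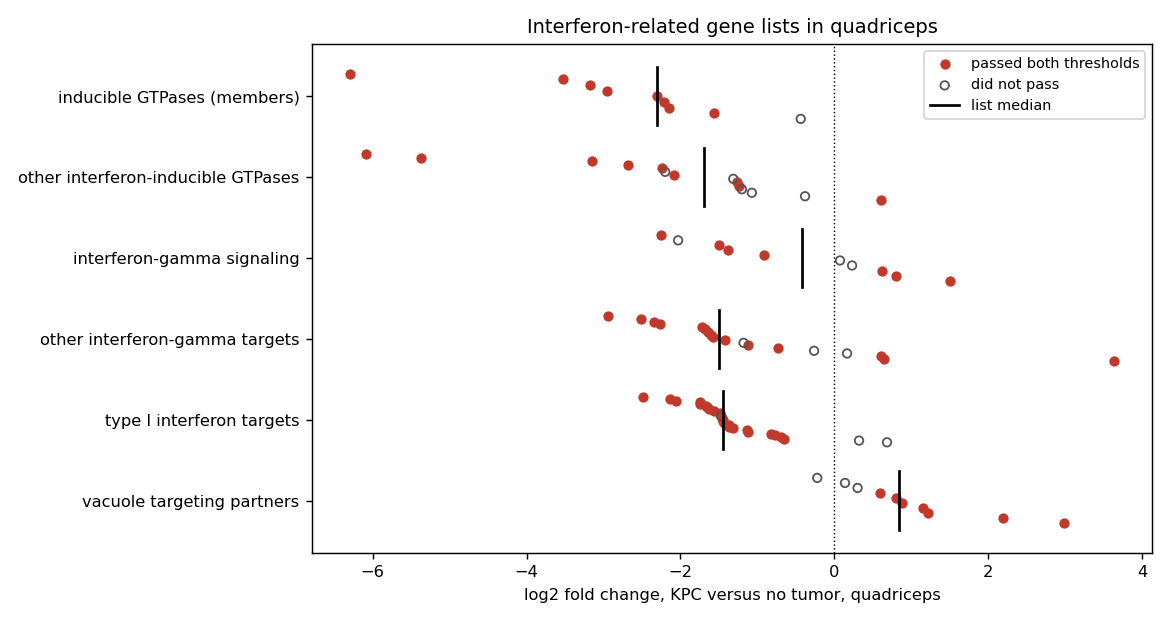
Log2 FC of KPC against no tumor in quadriceps (x axis) for each gene of 6 lists (y axis), with filled points for genes past both thresholds (FDR 0.05, FC 1.5) and a line at the list median. Medians are -2.31 for the inducible GTPases, -1.70 for other GTPases, -1.50 and -1.45 for the targets of interferon-gamma and type I interferon, and 0.83 for the vacuole targeting partners.

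Cell type markers moved in the same libraries, and their part in these results was not tested. Muscle fiber markers (7 of 7 in the table) summed to 148351 to 185339 CPM in no tumor, 119982 to 137420 in KPC and 170978 to 186167 in KPC IL6KO, and 1 rose and 2 fell in KPC. Fibroblast markers (4 of 4 in the table) summed to 900 to 990 CPM in no tumor, 158 to 261 in KPC and 502 to 764 in KPC IL6KO, and 4 of 4 fell in KPC. Neutrophil markers (5 of 6 in the table) summed to 2.98 to 4.51 CPM in no tumor, 5.65 to 22.6 in KPC and 4.55 to 8.04 in KPC IL6KO. In KPC 4 of 5 rose and Mmp9, named after its values were seen, fell, and in KPC IL6KO 0 were called by the quasi-likelihood test (3 with an unadjusted p under 0.05) and 2 rose by the likelihood ratio test and by DESeq2. The sum of macrophage markers (9 of 9) overlapped, at 115 to 163 CPM in no tumor, 47.0 to 195 in KPC and 121 to 181 in KPC IL6KO, but single markers moved in opposite directions. Against no tumor 1 rose and 2 fell in KPC, and 8 of 9 had a negative log2 FC, and against KPC IL6KO 1 rose and 4 fell. Endothelial markers (7 of 7) overlapped too, at 243 to 329 CPM in no tumor, 223 to 382 in KPC and 288 to 360 in KPC IL6KO, and 2 of 7 fell in KPC. Adipocyte markers (7 of 7) summed to 505 to 2503 CPM in no tumor, 128 to 1646 in KPC and 188 to 602 in KPC IL6KO. Of these, 1 fell in KPC and 0 were called in KPC IL6KO, while 7 of 7 had a negative log2 FC in either. Among all genes 29% fell and 26.7% rose in KPC against no tumor, so small counts of called markers lie near these shares. Of 11 markers of T cells and natural killer cells, 0 were in the quadriceps table, and 1 of 4 B cell markers was, with 0.205 to 0.745 CPM for no tumor and 0.0770 to 0.226 for KPC. No marker in either table was at 0 in every library of a group.

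The quadriceps genes whose log2 CPM followed the mean of the 9 genes most closely over the 11 libraries were Gbp3 (Pearson r = 0.994), Stat2 (0.988), AW112010 (0.985), Ei24 (0.974) and Gbp5 (0.974), out of 10514 genes compared. The libraries share the contrast between KPC and the other groups, which many genes show, so r is a description. Gbp3 had 3.84 to 7.90 CPM in no tumor, 0.433 to 1.81 in KPC and 4.42 to 17.6 in KPC IL6KO. Ei24 followed the pattern with a smaller range, 72.5 to 83.4 CPM in no tumor, 51.3 to 60.6 in KPC and 69.6 to 86.8 in KPC IL6KO.

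In epididymal fat, none of the 10 genes was called in any comparison. The quasi-likelihood test called 0% of all 16962 genes in either direction in the 3 comparisons. Among the 10 genes, 1 had an unadjusted p under 0.05 in KPC against no tumor, 0 in KPC IL6KO against no tumor and 2 in KPC against KPC IL6KO, and neither the likelihood ratio test nor DESeq2 called any. Unadjusted p was under 0.05 in 2061, 1584 and 1062 of all genes. Over all genes the likelihood ratio test called 145, 0 and 59 genes lower and 268, 209 and 7 higher in these comparisons, and DESeq2 221, 4 and 106 lower and 364, 281 and 19 higher. With the 3 libraries richest in epididymis RNA left out, a setting added after the data were seen, 0 of the 10 were called in any comparison, while of 16961 genes 115, 0 and 85 were called lower and 167, 0 and 238 higher.

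Gbp2 and Iigp1 varied widely within the groups of fat. Gbp2 had 21.4, 87.4, 12.5 and 37.8 CPM in no tumor, 43.4, 23.2, 17.8 and 16.9 in KPC and 34.6, 24.9, 68.1 and 58.8 in KPC IL6KO. Iigp1 had 12.9, 38.0, 9.67 and 19.6 CPM in no tumor, 23.5, 14.2, 10.9 and 8.85 in KPC and 14.2, 18.9, 32.3 and 33.3 in KPC IL6KO. The same mice were high for both, namely no tumor 6, KPC IL6KO 7 and KPC IL6KO 8, and the ranges of the groups overlapped. The summed level of the 10 genes was 293, 243 and 259 CPM in these 3 mice and 106 to 187 CPM in the other 9. The 3 mice had 10162 to 15802 CPM of epididymis markers, and of the other 9 only KPC IL6KO 5 had less (740 CPM).

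Gm4841, nearly absent from KPC quadriceps, was low in all fat groups. It had 0.737, 0.311, 0.558 and 0.617 CPM in no tumor, 0.788, 0.315, 0.539 and 0.228 in KPC and 0.834, 0.583, 0.416 and 1.28 in KPC IL6KO. KPC did not stand apart, with a log2 FC against no tumor of -0.25 ± 0.55 (edgeR FDR 0.88). Gm4951, its neighbor, had 1.68, 3.98, 2.02 and 2.51 CPM in no tumor, 2.19, 3.49, 2.76 and 1.63 in KPC and 3.04, 3.43, 4.52 and 7.52 in KPC IL6KO. Its largest log2 FC was -0.88 ± 0.42 for KPC against KPC IL6KO (edgeR FDR 0.82).

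Of the 10 genes, Tgtp2 gave the largest fitted differences in fat. It had 1.96, 6.57, 1.19 and 2.73 CPM in no tumor, 2.37, 0.659, 0.910 and 0.585 in KPC and 2.55, 3.15, 5.65 and 3.91 in KPC IL6KO. KPC values lay below all KPC IL6KO values, as they did for 3.69% of all genes, and overlapped no tumor. The log2 FC was -1.46 ± 0.63 against no tumor (edgeR FDR 0.39) and -1.75 ± 0.63 against KPC IL6KO (edgeR FDR 0.68). Against no tumor it was -0.79 without no tumor 6 and -2.11 without KPC 5, and against KPC IL6KO it ranged from -2.40 without KPC 5 to -1.47 without KPC IL6KO 7. Its twin Tgtp1 had 1.76, 4.91, 1.35 and 2.96 CPM in no tumor, 4.26, 1.89, 1.65 and 1.76 in KPC and 2.82, 2.26, 6.21 and 5.96 in KPC IL6KO, with a log2 FC of -0.20 ± 0.54 in KPC against no tumor (edgeR FDR 0.90).

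The counts of Tgtp2 per count of Tgtp1 in fat, a ratio noticed after the values were seen and not tested, were 0.879 to 1.34 in no tumor, 0.333 to 0.555 in KPC and 0.656 to 1.39 in KPC IL6KO. The KPC libraries were below all others. In quadriceps the ratio was 1.38 to 1.59 in no tumor, 0.571 to 1.22 in KPC and 0.986 to 1.37 in KPC IL6KO, from at most 28 counts of Tgtp2 in a KPC library. Because the transcripts are 99.3% identical, each ratio rests on the few bases that place a read.

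The regulators did not separate the groups of fat. Irgm1 had 46.7, 38.0, 28.9 and 24.5 CPM in no tumor, 42.9, 37.2, 30.7 and 37.7 in KPC and 63.4, 39.1, 32.7 and 45.1 in KPC IL6KO. Irgm2 had 33.1, 41.6, 20.8 and 20.6 CPM in no tumor, 21.5, 25, 19.0 and 19.8 in KPC and 23.6, 32.2, 41.8 and 44.0 in KPC IL6KO. Igtp had 32.0, 26.3, 20.7 and 15.6 CPM in no tumor, 21.3, 20.1, 15.6 and 14.9 in KPC and 15.6, 28.2, 23.1 and 24.6 in KPC IL6KO. The groups overlapped for all 3, and the log2 FC of KPC against no tumor was 0.11 ± 0.24 for Irgm1, -0.44 ± 0.27 for Irgm2 and -0.39 ± 0.26 for Igtp (edgeR FDR 0.88, 0.56 and 0.59). Against KPC IL6KO it was -0.28 ± 0.24, -0.73 ± 0.27 and -0.34 ± 0.26 (edgeR FDR 0.98, 0.68 and 0.94). There Irgm2 had an unadjusted p of 0.0195 by edgeR's quasi-likelihood test. Gbp7 had 15.1, 46.3, 8.67 and 22.1 CPM in no tumor, 24.8, 26.5, 12.9 and 20.2 in KPC and 15.7, 17.2, 28.3 and 34.9 in KPC IL6KO, and its log2 FC of KPC against no tumor was -0.13 ± 0.47 (edgeR FDR 0.93).

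**Figure D5:**
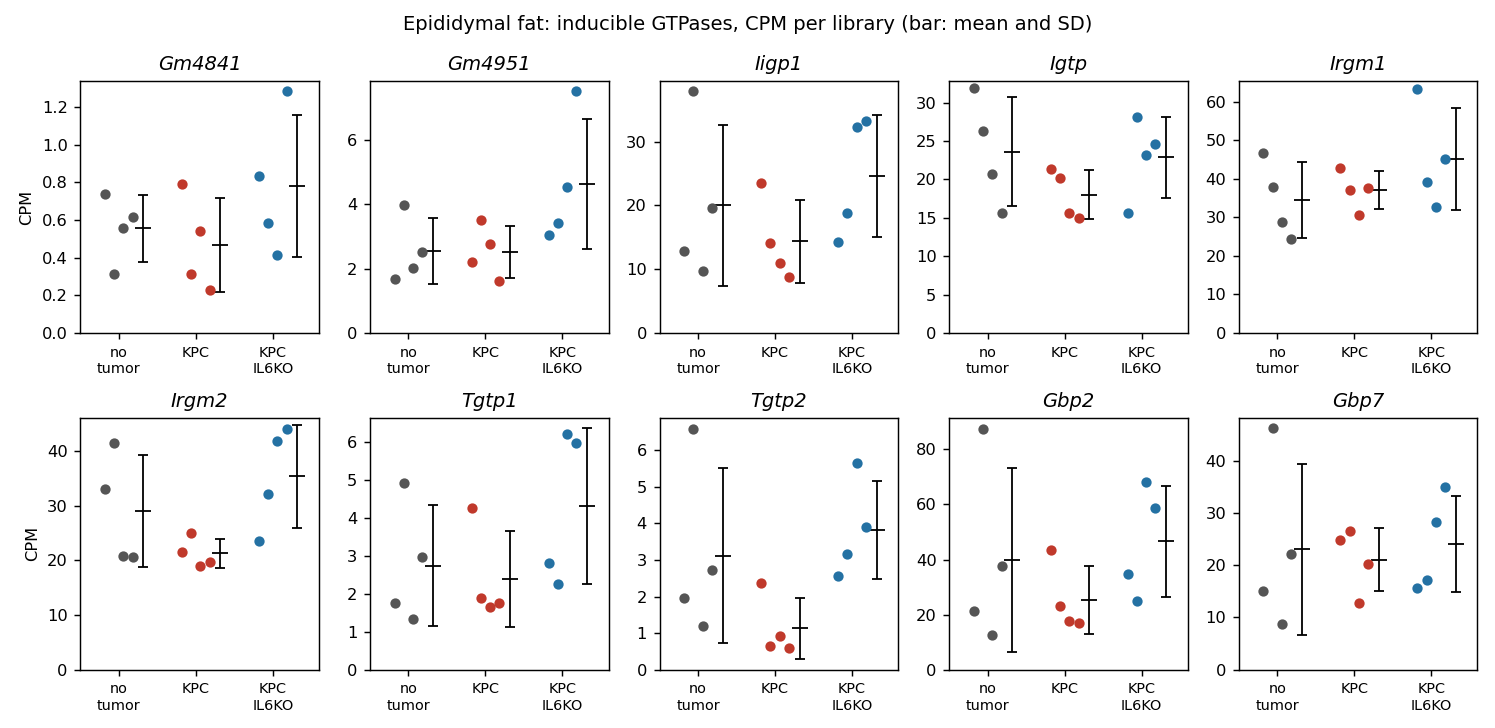
CPM (y axis, from 0) of the 10 inducible GTPases in each epididymal fat library, by group (x axis), where points are mice and bars give the mean and SD. The groups overlap in every panel except KPC against KPC IL6KO for Tgtp2, and no tumor 6 is the highest no tumor point for Gm4951, Iigp1, Irgm2, Tgtp1, Tgtp2, Gbp2 and Gbp7.

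Over the 10 genes in fat, the median log2 FC was -0.32 in KPC against no tumor, 0.30 in KPC IL6KO against no tumor and -0.76 in KPC against KPC IL6KO, with -0.10, -0.03 and -0.05 over all genes. Scaled to exon length, Gbp2 (15.8 ± 13.3 CPM per kb, SD, n = 4) and Igtp (11.7 ± 3.5) led the order in no tumor fat and Gm4841 was last (0.20 ± 0.06), with overlapping neighbors except Tgtp1 with Gm4841. Of the other interferon-inducible GTPase genes 19 were measured in fat. None of these, of the 10 signaling genes, of the 22 other targets of interferon-gamma, of the 28 targets of type I interferon or of the 10 vacuole targeting partners was called by the quasi-likelihood test in any comparison. In KPC against no tumor, 6 of the 19, 1 of the 10, 4 of the 22, 6 of the 28 and 2 of the 10 had an unadjusted p under 0.05. There the likelihood ratio test called Gbp10 and Cxcl9 lower and Oasl1 higher, and in KPC IL6KO against no tumor it called Icam1, Oasl1 and Zbp1 higher (all but Cxcl9 named after their values were seen). DESeq2 called 1, 0, 1, 2 and 0 genes of these lists lower and 1 target of type I interferon higher in KPC against no tumor. Gbp10 had at most 2 counts in a KPC library of fat. In KPC against KPC IL6KO, 6 of the 19, 1 of the 10, 3 of the 22, 9 of the 28 and 1 of the 10 had an unadjusted p under 0.05, as did 6.26% of all genes. The log2 FC there was negative in 18, 6, 20, 27 and 8 genes of these lists and in 10 of the 10 inducible GTPases. Macrophage markers (9 of 9) summed to 283 to 1076 CPM in no tumor fat, 1235 to 1771 in KPC fat and 471 to 3046 in KPC IL6KO fat, and markers of T cells and natural killer cells (10 of 11) to 10.4 to 655, 92.4 to 161 and 8.31 to 489 CPM. Muscle fiber markers (7 of 7) summed to 40.8 to 646 CPM in no tumor fat, 23.3 to 36.4 in KPC fat and 221 to 2806 in KPC IL6KO fat. In KPC against KPC IL6KO fat the quasi-likelihood test called 0 of these 7, all 7 had an unadjusted p under 0.05, and the likelihood ratio test called 6 lower and DESeq2 5. Their part in these values was not tested.

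The genes that followed the mean of the 10 GTPases most closely over the 12 fat libraries were Tap1 (Pearson r = 0.958), H2-T24 (0.957), Ube2g2 (0.938), H2-Q4 (0.937) and Adam15 (0.936), out of 13907 compared. Tap1 transports peptides to MHC class I, and H2-T24 and H2-Q4 are MHC class I genes. Tap1 had 19.9 to 39.8 CPM in no tumor, 16.9 to 26.4 in KPC and 23.9 to 42.3 in KPC IL6KO, with overlapping groups.

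Muscle and fat were set side by side in 1 fit of all 23 libraries over the 12599 genes of both tables that passed its filter. The log2 FC of KPC relative to no tumor was higher in fat than in quadriceps for 9 of 9 genes, by log2 values from 0.66 ± 0.31 (SE) for Irgm1 to 6.18 ± 0.80 for Gm4841, with a median of 1.94 (0.04 over all genes). Of the 9, 5 passed the thresholds, as did 18.8% of all genes in this direction, and since quadriceps values chose at least Gm4841, this is a description. The KPC IL6KO response is not known to have entered the choice, but its quadriceps libraries entered that of Gm4841. For KPC IL6KO the differences ran from -0.38 ± 0.81 for Iigp1 to 0.16 ± 0.31 for Irgm1. None was called by the quasi-likelihood test (edgeR FDR 0.889 to 0.996), where 0% of all genes were called. Tissue and library preparation changed together, as may have mice and sequencing run, and they cannot be told apart in these differences.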

How the data were processed

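Sequenced RNA came from 11 quadriceps (3 no tumor mice, 4 of either tumor group) and 12 epididymal fat pads (4 mice per group), with 1 library per mouse in each tissue. The authors aligned reads with STAR to mm10 and assigned uniquely mapped reads to genes with featureCounts 1.5.1. They deposited 1 table of raw counts per gene for each tissue, without normalization, and the unit used here is the count. For the libraries, the methods and the sample records name different kits, and a further muscle library without tumor, left out by the authors, was not analysed here.

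Groups came from the sample titles. For each tissue, TMM scaling factors and 1 model of its 3 groups were computed with edgeR 4.0.16 (R 4.3.3, quasi-likelihood, filterByExpr, which removed no gene), and p values were adjusted by Benjamini-Hochberg over all genes of a table. A call needed an FDR no higher than 0.05 and an FC no lower than 1.5. The fit was tested on simulated data. The likelihood ratio test, DESeq2 1.42.0 with its size factors, RLE normalization, 2 other filters (none, and at least 10 counts in every library), a fit of the compared groups only, a replicate block and leaving out each library were alternatives. No pair of libraries of a group agreed within sampling noise (chi-square per degree of freedom of at least 28.9). P values measure only the spread between these libraries.

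The genes and lists were chosen with earlier results of these data known. Named genes were the 10 GTPases, from each other list the most abundant gene and the called genes with the largest rise and fall per comparison, and per tissue the 5 genes (mean log2 CPM of at least 1, prior count of 2) with the highest correlation with the mean z-score of the GTPases. Others are marked as chosen after their values were seen. Values of 1 signaling gene are not reported here. Exon lengths are from GENCODE M21, promoters from RefSeq GRCm38.p6, and figures and alignments used Python 3.11.15 with matplotlib 3.10.9 and Biopython 1.88.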

Additional observations from a re-analysis of the deposited data

Results flagged for a closer look

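Within groups of 4 libraries, 48 sets of values of a GTPase in a group and tissue were examined for a library whose gap to the nearest other exceeds the 95% limit of Dixon's test, and 9 were marked. Chance marks about 1 in 20 such sets, and genes of a set are not independent. KPC 2 quadriceps was high in 4 of them, with 3.29 CPM of Iigp1 (1.02 to 1.34 in the other KPC libraries), 5.29 CPM of Igtp (2.09 to 2.59), 10.4 CPM of Irgm2 (5.83 to 6.16) and 0.479 CPM of Tgtp2 (0.151 to 0.196). KPC IL6KO 4 quadriceps was high in another 4, with 24.7 CPM of Irgm1 (15.2 to 16.3 in the other KPC IL6KO libraries), 9.90 CPM of Tgtp1 (0.859 to 1.61), 9.76 CPM of Tgtp2 (1.17 to 1.81) and 27.1 CPM of Gbp2 (6.36 to 7.98). In fat, KPC 5 had 4.26 CPM of Tgtp1 (1.65 to 1.89 in the other KPC libraries).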

How the results depend on the processing

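The counts of called GTPases in quadriceps were 8 of 9 against no tumor and 9 of 9 against KPC IL6KO. They were the same with the likelihood ratio test, DESeq2, RLE scaling, the compared groups fitted alone and the replicate block. The setting without a filter repeats the main fit, since the main filter removed no gene. With at least 10 counts required in every library, 6 of the 9 were tested against no tumor and 5 were called lower, with 5 other GTPases lower and 0 higher. Other GTPases called higher against no tumor (Irgq) were 0 with the compared groups alone. In fat, 1 other GTPase was called lower in KPC against either group by the likelihood ratio test and by DESeq2, which also called 1 higher in KPC IL6KO against no tumor. No alternative called 1 of the 10 GTPases in fat.

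Correlations of deviations between same-numbered libraries ran from -0.155 to 0.265 in quadriceps and from -0.539 to 0.650 in fat. With both signs present the numbers were not taken to pair mice, but this check cannot settle whether they do. With the replicate block no call of the GTPases changed and other GTPases called higher were 0. It reversed uncalled log2 FC of KPC IL6KO against no tumor in quadriceps (Tgtp1 -0.29, Tgtp2 -0.53) and of KPC against no tumor in fat (Gm4951 0.038, Gbp7 0.025). With the compared groups alone Gm4951 was 0.0071 there. Leaving out the 3 fat libraries richest in epididymis RNA, chosen after seeing the data, gave 0.0021 for Gm4841 in KPC against no tumor, and in KPC IL6KO against no tumor -0.16 for Iigp1, -0.26 for Tgtp2, -0.27 for Gbp2 and -0.43 for Gbp7.

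Leaving out each library in turn gave 7 to 8 GTPases lower than in no tumor (Tgtp1 lost without no tumor 1) and 8 to 9 lower than in KPC IL6KO (Irgm1 lost without KPC 4 or KPC IL6KO 4). Other GTPases ranged from 7 to 11 and 8 to 11 lower, and from 0 to 1 higher in both comparisons. For named genes of the other lists, this was added after seeing the data. Uncalled values changed sign in some fits. In quadriceps, KPC IL6KO against no tumor ranged from -0.19 to 1.02 for Iigp1, -0.12 to 0.41 for Igtp, -0.74 to 1.31 for Tgtp1, -1.005 to 0.85 for Tgtp2 and -0.38 to 0.61 for Gbp2, each lowest without KPC IL6KO 4. In fat, KPC against no tumor ranged from -0.22 to 0.28 for Gm4951, -0.82 to 0.032 for Iigp1, -0.027 to 0.29 for Irgm1, -0.63 to 0.24 for Tgtp1, -1.04 to 0.085 for Gbp2 and -0.40 to 0.46 for Gbp7. KPC IL6KO against no tumor ranged from -0.20 to 0.13 for Igtp, -0.069 to 0.96 for Gbp2 and -0.21 to 0.65 for Gbp7, and KPC against KPC IL6KO from -0.35 to 0.047 for Gbp7. The cause of these changes was not tested. Tgtp1 and Tgtp2 in KPC quadriceps rest on 8 to 28 counts per library and Gm4841 on 0 to 3, and in fat the spread between libraries limits what can be called.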
